A study of Homo sapiens with 40 samples.

Results

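Keratin and keratin-associated protein genes were defined by symbol: protein-coding autosomal genes called KRT with a number and an optional letter, or with a symbol beginning with KRTAP. The rule found 149 of the 19974 protein-coding genes of chromosomes 1 to 22 and X, made up of 55 keratin genes and 94 keratin-associated protein (KRTAP) genes. The study mapped H3K27me3, the histone mark laid down by Polycomb repressive complex 2, by CUT&Tag, in which a transposase (pAG-Tn5) tethered to an antibody cuts and tags the DNA next to the mark. The cells were of the KMS-11 line, from a multiple myeloma with the t(4;14) translocation, which places the H3K36 dimethyltransferase NSD2 under immunoglobulin enhancers. In the knockout (KO) experiment, 4 libraries came from the NSD2 KO clones 3 and 12 and 2 from the untreated wild-type KO parental line. In the degron experiment, the clones 8 and 11 carry an NSD2-dTAG knock-in, a tag through which the degrader dTAGV-1 removes the protein. They were sampled at day 0 (untreated) and after 7, 14 and 21 days of dTAGV-1 at 100 nM, with 4 libraries a day. The wild-type dTAG parental line was sampled on the same 4 days with 2 libraries a day, treated with dTAGV-1 on days 7, 14 and 21; no dose was stated for it. Each KO or knock-in genotype rests on 2 clones with 2 libraries each, and the peak lists cannot show how much NSD2 protein was left. No label says whether replicate parental libraries came from separate cultures, so the p-values may measure technical spread there.

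Keratins build the intermediate filaments of epithelial cells as obligate pairs of one type I and one type II protein, and KRTAP proteins cross-link those filaments in the hair shaft. Most of these genes are silent in blood cells, and the genes sit in large arrays of related copies, type II keratins on chromosome 12 and type I keratins on chromosome 17. Polycomb holds developmental genes silent through H3K27me3, and H3K36me2 deposited by NSD2 is known to hinder that complex from methylating the same histone tail.

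The measure used throughout is coverage, the percent of a gene's bases that lay inside the authors' merged H3K27me3 peaks in one library. A gene is called gained or lost where limma's moderated test across 14235 genes gave a Benjamini-Hochberg adjusted p under 0.05, and differences are given in percentage points. The 30 libraries held 34740 to 205920 peaks over 36.1 to 168 Mb. The length called was 130.4 Mb in the KO clones against 67.4 Mb in the KO parental line, and 50.7, 112, 113 and 120.3 Mb in the dTAG clones at days 0, 7, 14 and 21. The background pileup, a depth index (overlapping fragments per base of background) solved from the deposited folds and p-values of the shortest peaks, ran with it, at 2.49 in the KO clones against 2.04 in the KO parental line and at 2.33 on day 21 against 1.44 on day 0. The dTAG parental line had 57.6 Mb called at day 0 and 77.8 Mb at day 21, at pileups of 1.66 and 2.37. At day 21 its pileup was thus above that of the dTAG clones, with less length called. In the KO clones and the dTAG clones each gain below moved together with depth and with the length called. The part of depth and called length in the gains was not tested. The cell type was checked on 9 plasma cell genes. JCHAIN lay outside peaks in all 30 libraries, and PRDM1, TNFRSF17, IRF4 and CD38 were covered by at most 1.48, 2.66, 7.39 and 8.95%. SDC1, MZB1, XBP1 and SLAMF7 reached 12.0, 16.9, 35.4 and 55.8%, so the list was not free of the mark.

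The 149 genes lie in 6 clusters on GRCh38, which were read as 8 blocks because the chromosome 17 cluster changes from keratin genes to KRTAP genes and back. The type II keratin genes (27, with the type I gene KRT18 at their end) span chr12:52168996-52952906. On chromosome 17, the block KRT222 to KRT40 holds 12 keratin genes (chr17:40654665-40987135), the KRTAP array 34 genes (chr17:40993430-41315710), and the block KRT33A to KRT17 holds 16 keratin genes (chr17:41346092-41624575). Chromosome 21 carries 33 KRTAP genes in band 21q22.1 (chr21:30281309-31038476) and the 16 KRTAP10 and KRTAP12 genes in 21q22.3 (chr21:44538981-44698044), which nest within the gene TSPEAR. The KRTAP5 genes form groups of 6 at chr11:1584342-1697755 and of 5 at chr11:71527267-71582875. Gene bodies ran from 208 to 52670 bp with a median of 1149 bp, and 62 were under 1 kb, so that a single peak edge moves a KRTAP gene's coverage by a large share. Of the 149 genes, 129 entered the test. The other 20 did not: 18 had no peak in any library (11 in 21q22.1, 6 in the KRTAP array, and KRTAP5-6), KRTAP9-6 averaged under 1%, and KRTAP10-3 averaged over 99%.

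In cells with NSD2, the blocks fell into covered and bare ones. In the KO parental line, peaks filled 24.5% of the chromosome 12 span, 21.8% of the KRT33A to KRT17 span, 28.1% of the 21q22.3 span and 24.0% and 22.28% of the KRTAP5 spans at 11p15 and 11q13. In the same line, they filled 1.32% of the KRT222 to KRT40 span, 0.657% of the KRTAP array and 0.0205% of the 21q22.1 span. The dTAG clones at day 0 showed the same split: 12.9%, 11.4%, 30.1%, 19.1% and 6.29% in the covered blocks, in the order above, and 0.587%, 1.13% and 0.0259% in the bare ones. The keratin arrays on chromosome 17 thus differed from each other in untreated cells, although the 3 blocks adjoin within 1 Mb. Within the bare KRTAP array 1 gene stood out by having a peak in all 30 libraries: KRTAP16-1 (chr17:41307700-41309309), a hair-shaft protein gene near its far end, with a mean coverage of 69.6%. KRTAP17-1, of the same array, varied among cells with NSD2. KRTAP17-1 was at 0 in the KO parental line and averaged 29.7% in the untreated dTAG clones, where 2 of 4 libraries had a peak. In the dTAG parental line KRTAP17-1 was at 0 when untreated and higher by +92.3 percentage points after 21 days (SE 27.0, adjusted p = 0.732, by limma). Single genes stood out in the covered blocks too: KRT16 (chr17:41609778-41612767), the type I keratin of wounded and palmoplantar epidermis, averaged 85.1% and was covered in all 30 libraries. KRTAP16-1, KRTAP17-1 and KRT16 were named after their values were seen.

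**Figure D1:**
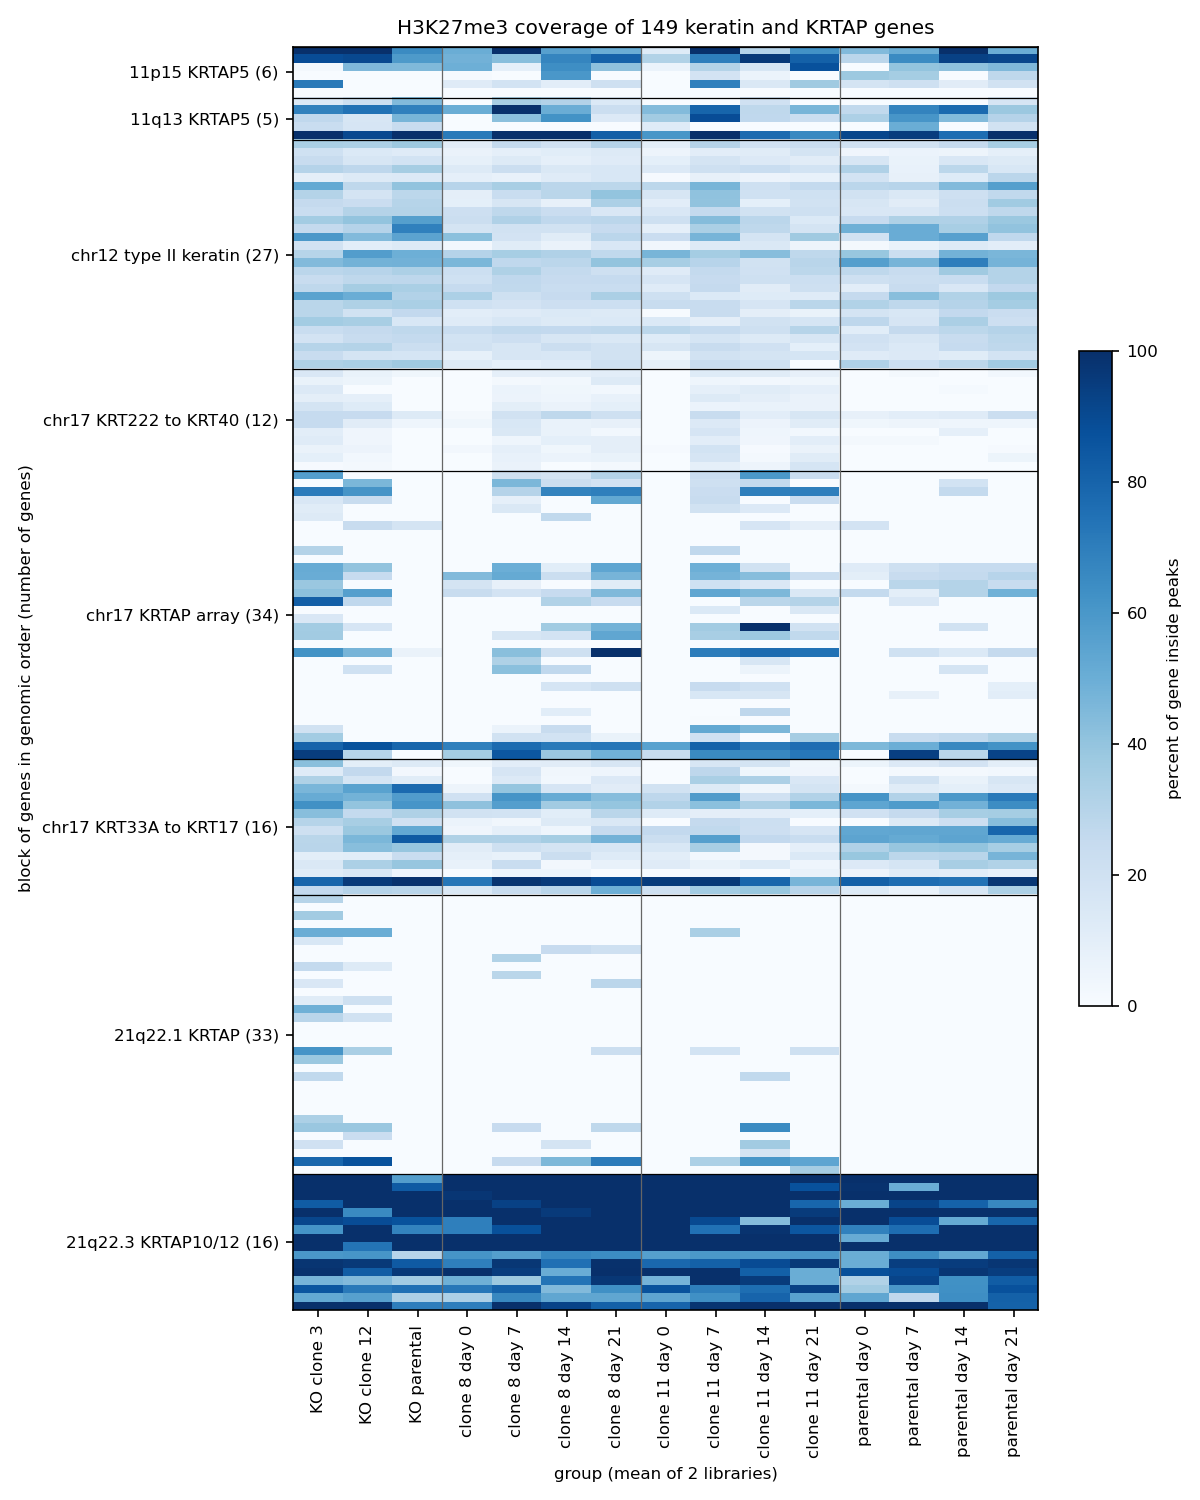
Percent of each gene body inside H3K27me3 peaks (colour, 0 to 100%) for the 149 genes (rows, in genome order by block) in the 15 groups of libraries (columns, mean of 2 libraries each). The 21q22.1 genes are at 0 in the KO parental line and at day 0 in the dTAG clones, while KRTAP10-3 at 21q22.3 is at or near full coverage in every group.

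The upstream sequence of these genes differs from that of most promoters. As examples 5 promoters are printed, since their blocks had different coverage. They are KRT26 (bare keratin block, chr17:40772152-40772451), KRTAP3-1 (bare KRTAP array, chr17:41009079-41009378), KRTAP24-1 (chr21:30282901-30283200) and KRTAP11-1 (chr21:30881531-30881830) from opposite parts of the 21q22.1 cluster, and KRTAP10-3 (covered 21q22.3 block, chr21:44558746-44559045). Each runs 5′ to 3′ from 250 bases before to 50 after the gene's start, from RefSeq on GRCh38.p14. All 5 genes are on the minus strand. Capitals mark CG dinucleotides and the 6 letters TATAAA or, for the other strand, TTTATA.
KRT26: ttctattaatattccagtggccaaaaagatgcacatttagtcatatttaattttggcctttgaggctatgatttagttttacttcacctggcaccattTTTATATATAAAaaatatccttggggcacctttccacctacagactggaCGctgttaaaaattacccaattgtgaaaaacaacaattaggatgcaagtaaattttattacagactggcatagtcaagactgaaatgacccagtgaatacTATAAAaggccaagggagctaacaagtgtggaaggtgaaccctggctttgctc
KRTAP3-1: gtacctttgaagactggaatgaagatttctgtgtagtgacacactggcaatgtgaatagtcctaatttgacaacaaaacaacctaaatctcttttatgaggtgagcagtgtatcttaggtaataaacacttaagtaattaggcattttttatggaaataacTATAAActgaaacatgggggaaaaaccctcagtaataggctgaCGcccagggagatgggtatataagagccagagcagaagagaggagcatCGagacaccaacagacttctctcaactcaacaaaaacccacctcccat
KRTAP24-1: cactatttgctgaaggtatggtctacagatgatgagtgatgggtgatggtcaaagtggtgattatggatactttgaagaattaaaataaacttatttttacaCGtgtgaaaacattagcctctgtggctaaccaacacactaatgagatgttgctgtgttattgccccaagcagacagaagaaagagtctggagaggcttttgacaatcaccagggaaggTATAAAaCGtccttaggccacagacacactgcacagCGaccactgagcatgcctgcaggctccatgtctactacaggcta
KRTAP11-1: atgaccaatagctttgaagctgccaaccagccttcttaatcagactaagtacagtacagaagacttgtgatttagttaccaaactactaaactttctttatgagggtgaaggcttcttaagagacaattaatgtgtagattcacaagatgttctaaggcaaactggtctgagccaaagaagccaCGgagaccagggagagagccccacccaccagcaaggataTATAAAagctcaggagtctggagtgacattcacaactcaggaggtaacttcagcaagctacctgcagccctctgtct
KRTAP10-3: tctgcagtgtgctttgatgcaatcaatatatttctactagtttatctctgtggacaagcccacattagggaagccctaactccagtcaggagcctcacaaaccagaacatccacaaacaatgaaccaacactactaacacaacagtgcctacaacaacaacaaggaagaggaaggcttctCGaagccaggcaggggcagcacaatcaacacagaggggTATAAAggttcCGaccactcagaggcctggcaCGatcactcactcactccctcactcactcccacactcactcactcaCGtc
They hold 1, 2, 3, 1 and 4 CG dinucleotides, in that order. Promoter sequence was matched by gene ID for 114 of the 149 genes, whose median was 2 CG dinucleotides per 300 bases, against 22 over 15812 protein-coding promoters. GC content had a median of 43.7%, against 62.7%. TATAAA was present on either strand in 84 of the 114 (73.7%), against 9.64% of all promoters, and on the gene's own strand in 79 (69.3%), against 6.92%. The match is of letters only. TATAAA and TTTATA adjoin in the first run of capitals of KRT26, and each promoter was counted once. Both the bare and the covered blocks had such promoters: the median was 2 CG dinucleotides in the KRT222 to KRT40 block, in the KRTAP array, in 21q22.1, on chromosome 12 and in the KRT33A to KRT17 block, and 4 in 21q22.3. In GC content the blocks differed. In the same order, the medians were 39, 42 and 38.5% in the bare blocks and 49.7, 45.8 and 55.3% in the covered ones. TATAAA on either strand was in 70, 87.9 and 76.7% of the bare blocks' matched promoters (10, 33 and 30 promoters). It was in 42.9, 70 and 73.3% of the covered ones' (14, 10 and 15 promoters). The KRTAP5 blocks, with 1 matched promoter each, were left out.

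The first comparison asked where coverage of these genes differed when NSD2 was knocked out. In the KO clones 10 of the 129 tested genes were gained, against 17.7% of all genes tested, and 2 were lost, against 0.717% of all. With coverage scaled to the library's called length, 7 were gained and 15 lost. Scaling moved the median difference of all genes below 0. The shares above are unscaled, so the scaled counts cannot be read against them. The gained genes were KRTAP11-1, KRTAP24-1, KRTAP26-1 and KRTAP6-3 in 21q22.1, KRTAP3-1 and KRTAP4-7 in the KRTAP array, KRT26, KRT27 and KRT222 in the bare keratin block, and KRTAP10-1 in 21q22.3. The lost genes were KRT6C on chromosome 12 and KRT13 on chromosome 17. Of the 129, 57 were at 0 in both KO parental libraries, so they entered the test through other libraries and could differ in 1 direction only. Among these 57 are 8 of the 10 gained genes. Over all genes, 1601 tested genes were at 0 in both KO parental libraries, and 635 of them were gained. KRTAP24-1 and KRTAP26-1 were covered in clone 3 alone, and their calls, counted among the 10, carry no weight, as said below. Over all 149 genes, tested or not, 78 were higher in the KO clones, 40 lower and 31 without a difference, with a median difference of 1.78 percentage points, against 0.546 over all 19974 genes. Split by type, 3 of 55 keratin genes were gained and 2 lost, while 7 of 74 tested KRTAP genes were gained and 0 lost. The median difference was -2.05 over the 55 keratin genes and 6.04 over all 94 KRTAP genes. By block, 4 of the 22 genes tested in 21q22.1 were gained, 3 of 12 in KRT222 to KRT40 and 2 of 27 in the KRTAP array, against 1 of 15 in 21q22.3 and 0 in each of the other blocks.

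The blocks were also read as spans, by library. The 21q22.1 span was inside peaks by 5.55, 4.38, 1.97 and 1.31% in the KO clones (clone 3, then clone 12), against 0.0411 and 0% in the KO parental line. The KRT222 to KRT40 span held 11.0, 9.10, 7.39 and 4.50% in the KO clones, against 1.23 and 1.41% in the KO parental line. The KRTAP array held 7.58, 6.55, 3.57 and 2.30% in the KO clones, against 0.546 and 0.767% in the KO parental line. In each of these 3 spans every KO library was above both parental libraries, and both libraries of clone 3 were above both of clone 12. The covered blocks did not separate. The chromosome 12 span held 23.8% ± 3.11 (SD, n = 4) in the KO clones and 24.5% ± 6.00 (SD, n = 2) in the KO parental line. The KRT33A to KRT17 span held 21.5% ± 2.92 (SD, n = 4) in the KO clones and 21.8% ± 5.50 (SD, n = 2) in the KO parental line, and the 21q22.3 span 29.9% ± 1.00 (SD, n = 4) in the KO clones and 28.1% ± 6.98 (SD, n = 2) in the KO parental line. As a multiple of the called percent of the genome in the same library, the mean was 0.720 in the KO clones against 0.00768 in the KO parental line in 21q22.1, 1.82 against 0.626 in KRT222 to KRT40, and 1.11 against 0.319 in the KRTAP array. The same multiple was lower in the KO clones in each covered block, at 5.66 against 11.1 on chromosome 12, 5.13 against 9.86 in KRT33A to KRT17 and 7.26 against 12.7 in 21q22.3.

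**Figure D2:**
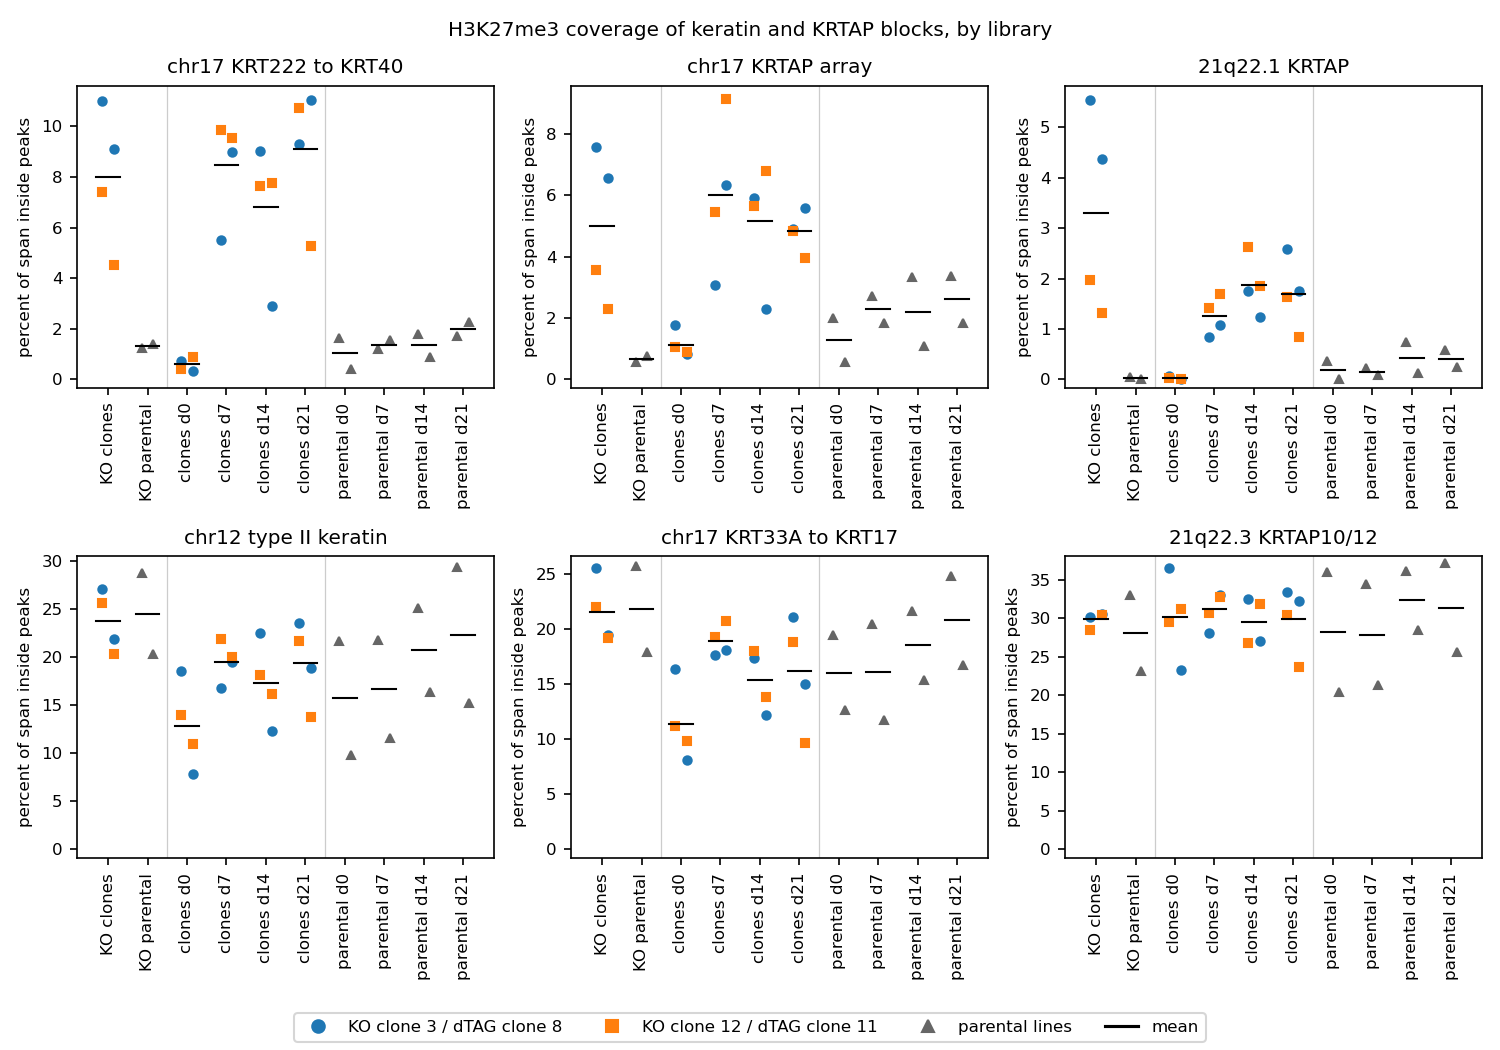
Percent of each block's span inside H3K27me3 peaks (y axis) by library (points) in the KO clones, the KO parental line, the dTAG clones at days 0, 7, 14 and 21 and the dTAG parental line (x axis), with the 3 bare blocks in the top panels and 3 covered blocks in the bottom panels. In the top panels every KO library lies above both KO parental libraries and every treated library of the dTAG clones above all 4 day 0 libraries; in the bottom panels the groups overlap.

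The 33 KRTAP genes of 21q22.1 encode high-sulfur and high glycine-tyrosine proteins of the hair cortex. None of the 33 had any base inside a peak in the KO parental line, in the dTAG clones at day 0 or in any of the 8 dTAG parental libraries. In the KO clones 13, 7, 8 and 1 of the 33 had some coverage in the 4 libraries. Over the 4 together 17 of the 33 had a peak and 16 had none, and since all were at 0 in the KO parental line none could be lower. Of the 22 tested, which entered through the libraries that covered them, 4 were gained, against 17.7% of all genes tested. Among the 4 are KRTAP24-1 and KRTAP26-1, whose calls carry no weight, as said below. KRTAP11-1 (chr21:30880644-30881580), a high-sulfur gene, was covered by 75.1, 82.2, 82.2 and 91.5% in the KO clones, against 0% (each library) in the KO parental line. All 4 KO libraries held most of the gene inside peaks, and the groups did not overlap. Groups at 0 add no spread to the limma fit, so its p may be too small. The difference in that limma fit was +82.7 percentage points (SE 19.4, adjusted p = 0.00563). The peak took in its promoter as well, which was covered by 86.3, 100, 100 and 100% in the KO clones and by 0% (each library) in the KO parental line. KRTAP24-1 (chr21:30281309-30282950), the high-sulfur gene at the start of the cluster, was covered by 31.4, 28.4, 0 and 0% in the KO clones and by 0% (each library) in the KO parental line. Only the 2 libraries of clone 3 had a peak there. Its difference was 15.0 percentage points. It passed limma's threshold with 14 of the 15 groups at 0, which add no spread, so its p is not given and the call carries no weight. KRTAP26-1 (chr21:30319124-30320315) was covered by 25.3, 46.8, 0 and 0% in the KO clones and by 0% (each library) in the KO parental line, again in clone 3 alone and with the same limit on its call. The difference for KRTAP26-1 was 18.0 percentage points. KRTAP6-3 (chr21:30592440-30593055), of the high glycine-tyrosine class, was covered by 63.8, 58.8, 67.4 and 0% in the KO clones and by 0% (each library) in the KO parental line, with a peak in 3 of the 4 KO libraries. The gene differed by +47.5 percentage points (SE 14.6, adjusted p = 0.0297) by limma. The call for KRTAP11-1 was lost without KO parental replicate 2 (adjusted p = 0.0591), and that for KRTAP6-3 without clone 3 replicate 1, clone 12 replicate 1 (difference 30.6) or either parental library.

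The 12 keratin genes from KRT222 to KRT40 include the keratins of the inner root sheath of the hair follicle, the suprabasal epidermal keratin KRT10 and the intestinal keratin KRT20. All 12 were higher in the KO clones (9 were at 0 in both KO parental libraries), with a median difference of 7.42 percentage points. Of the 12, 3 were gained, against 17.7% of all genes tested. KRT26 (chr17:40766238-40772201), an inner root sheath keratin, was covered by 12.5, 6.92, 4.88 and 12.8% in the KO clones and by 0% (each library) in the KO parental line. KRT27 (chr17:40776808-40782550), next to it and of the same tissue, was covered by 18.1, 16.7, 4.48 and 20.5% in the KO clones and by 0% (each library) in the KO parental line. The peaks covered a small part of each gene in all 4 KO libraries and none of either in the KO parental line. The differences were +9.29 percentage points (SE 2.55, adjusted p = 0.0158) for KRT26 and +14.9 percentage points (SE 4.28, adjusted p = 0.0202) for KRT27 by limma. KRT222 (chr17:40654665-40665177), named after its values were seen because the naming rule did not select it, was covered by 15.2, 15.3, 10.6 and 3.30% in the KO clones and by 3.41 and 3.75% in the KO parental line. Clone 12 replicate 2 overlapped the parental libraries, and the difference was +7.51 percentage points (SE 2.47, adjusted p = 0.0426) by limma. KRT10 (chr17:40818117-40822614), the type I keratin of differentiating epidermis, was covered by 25.1, 24.3, 14.0 and 8.09% in the KO clones and by 0 and 8.60% in the KO parental line. It did not pass: for KRT10, limma gave +13.6 percentage points (SE 5.10, adjusted p = 0.0778). Between the genes the block looked the same: gaps were covered by 7.49% in the KO clones against 1.18% in the KO parental line, and genes by 9.28% against 1.66%. The 10 matched promoters of the block were covered by 17.6% on average in the KO clones and by 0% in the KO parental line. The KRT26 call was lost without clone 3 replicate 1, clone 12 replicate 2 or either parental library, and the KRT27 call without clone 12 replicate 2 or either parental library.

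In the KRTAP array, 2 of 27 tested genes were gained, against 17.7% of all genes tested. Over all 34 genes, of which 31 were at 0 in both KO parental libraries, the median difference was 8.60 percentage points. KRTAP3-1 (chr17:41008521-41009128), a high-sulfur hair cortex gene, was covered by 74.5, 67.4, 61.7 and 60.7% in the KO clones and by 0% (each library) in the KO parental line. The 4 KO libraries lay close together and apart from the parental ones, and the call (+66.1 percentage points, SE 14.0, adjusted p = 0.00291, by limma) held without any 1 of the 6 libraries. KRTAP4-7 (chr17:41084150-41085144), an ultra-high-sulfur gene, was covered by 50.6, 51.8, 50.8 and 29.7% in the KO clones and by 0% (each library) in the KO parental line. Its difference was +45.7 percentage points (SE 14.9, adjusted p = 0.0406) by limma, and the call was lost in 5 of the 6 fits that left out 1 library. In the untagged dTAG parental line KRTAP4-7 was covered by 24.1, 0, 41.4, 0, 49.7, 0, 49.7 and 0%. KRTAP4 genes are near-identical copies, as are those of the KRTAP2 and KRTAP9 families, so reads may be shared between them and the coverage of any 1 of them is uncertain. Over the array, member genes were covered by 21.3% in the KO clones against 4.76% in the KO parental line, and the gaps between them by 3.25% against 0.216%.

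The covered blocks held both lost genes and 1 gained gene. KRT6C (chr12:52468516-52473805), a stress-induced type II keratin with the close copies KRT6A and KRT6B, was covered by 18.4, 32.5, 43.3 and 16.8% in the KO clones and by 79.3 and 58.9% in the KO parental line. KRT13 (chr17:41500981-41505612), the type I keratin of internal stratified epithelia, was covered by 45.4, 12.1, 49.3 and 42.7% in the KO clones and by 68.3 and 98.2% in the KO parental line. All 4 KO libraries were below both parental ones for each gene. The differences by limma were -41.4 percentage points (SE 13.0, adjusted p = 0.0342) for KRT6C and -45.8 percentage points (SE 14.8, adjusted p = 0.0387) for KRT13. With peaks of −log10 q of at least 5, KRT6C turned to 4.59 percentage points and KRT13 was at -34.1, neither called. The KRT6C call was lost without clone 3 replicate 1, clone 12 replicate 2 or either parental library, and that of KRT13 without clone 3 replicate 2, either library of clone 12 or KO parental replicate 2. Other keratins of these blocks did not pass. KRT8 and KRT18, the pair of simple epithelia, differed by 3.87 (adjusted p = 0.723) and -4.13 (0.926) by limma. KRT5 and KRT14, the pair of the basal epidermis, differed by 2.18 (0.899) and 9.04 (0.338) by limma. KRT1, the suprabasal partner of KRT10, averaged 52.6% ± 9.85 (SD, n = 4) in the KO clones and 31.2% ± 5.91 (SD, n = 2) in the KO parental line (adjusted p = 0.203 by limma). In 21q22.3, KRTAP10-1 (chr21:44538981-44540195) was fully covered in 29 of the 30 libraries and at 14.2% in KO parental replicate 2. Its difference (+42.9 percentage points, SE 13.0, adjusted p = 0.0273, by limma) rests on that library and could not be fitted without it, and it turned to -25.0 with peaks of −log10 q of at least 5. KRTAP10-3 was likewise fully covered in 29 libraries, with 94.6% in the dTAG clone 8 at day 0, replicate 2. Over that block member genes were covered by 87.3% in the KO clones and 79.0% in the KO parental line, and the gaps by 23.3% in the KO clones and 22.2% in the KO parental line. The 10 tested KRTAP5 genes of chromosome 11 had 0 calls, with 0 at an unadjusted p under 0.05 by limma.

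Set against the KO parental line 1 clone at a time, clone 3 had 22 genes gained and 3 lost, against 21.6% and 0.653% of all genes tested, and clone 12 had 2 gained (KRTAP3-1 and KRTAP11-1) and 0 lost, against 4.43% and 0.197%. The difference between the clones was not tested, and the length called was 168 and 137 Mb in clone 3 and 123 and 94.0 Mb in clone 12. The pooled count of gained genes was 19 without clone 3 replicate 2, 6 without clone 12 replicate 1, 18 without clone 12 replicate 2 and 3 without KO parental replicate 2. With peak lists cut to equal called length, 0 of the 80 genes then tested were gained and 4 lost. With the KO libraries fitted alone 6 were gained and 0 lost. On equal-length lists, a check added after seeing the data for the chromosome 17 blocks, the bare spans still held more in the KO clones. The means were 0.444% against 0% in the KO parental line in 21q22.1, 1.35% against 0.609% in KRT222 to KRT40 and 0.884% against 0.396% in the KRTAP array. The covered spans then held less in the KO clones, at 7.60% against 13.6% on chromosome 12, 6.27% against 14.6% in KRT33A to KRT17 and 18.6% against 21.6% in 21q22.3.

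The degron comparison asked the same question over time after dTAGV-1 was added to the NSD2-dTAG clones. Of the 129 tested genes, 17 were gained at day 7, 9 at day 14 and 15 at day 21 relative to day 0, against 20.7%, 21.6% and 25.9% of all genes tested. None were lost on any of the 3 days (0 of 129), against 0.232%, 0.625% and 0.471%. With coverage scaled to the library's called length, 14, 13 and 11 were gained and 22, 26 and 27 lost on those days. Scaling moved the median difference of all genes below 0 at day 21. The shares above are unscaled, so the scaled counts cannot be read against them. The median difference over all 149 genes was 7.14, 2.97 and 3.00 percentage points at days 7, 14 and 21, against 0.680, 0.500 and 0.710 over all 19974 genes. Of the 129 tested genes 57 were at 0 in all 4 day 0 libraries, among them 11 of the 15 gained at day 21. Over all genes, 1532 tested genes were at 0 in all 4 day 0 libraries, and 689 of them were gained at day 21. Keratin genes made up 13 of the 17 gained at day 7, 2 of 9 at day 14 and 9 of 15 at day 21, and KRTAP genes the other 4, 7 and 6. In the dTAG parental line 0 of the 129 were gained or lost at day 21 by limma, with 7 at an unadjusted p under 0.05, against 0.014% and 0.0% of all genes tested. The change in the clones was called different from that in the parental line for 0 of the 129 by limma, with 9 at an unadjusted p under 0.05. Of all genes tested, 1.82% were called higher and 0.0773% lower. Among the 129, KRTAP3-1 came nearest to a call (+69.5 percentage points, SE 19.8, adjusted p = 0.0774). Without clone 8 day 0 replicate 2 the counts of gained genes at days 7, 14 and 21 were 7, 5 and 9, and with peak lists cut to equal called length they were 0, 1 and 2 of 80. The day 7 count was also 7 when replicate 2 of clone 8 at day 7 was left out, 8 when replicate 2 of clone 11 at day 0 was, and 10 when replicate 1 of clone 11 at day 7 was. The day 14 count was 5 when replicate 1 of clone 8 at day 14 or either day 0 library of clone 11 was left out, and 15 when replicate 2 of clone 8 at day 14 was.

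The 3 bare blocks held more than at day 0 from the first treated day. The KRT222 to KRT40 span averaged 0.587%, 8.46%, 6.83% and 9.09% in the dTAG clones at days 0, 7, 14 and 21, against 1.03%, 1.37%, 1.33% and 1.99% in the dTAG parental line. The KRTAP array averaged 1.13%, 6.00%, 5.17% and 4.82% in the dTAG clones, against 1.28%, 2.29%, 2.20% and 2.60% in the dTAG parental line. The 21q22.1 span averaged 0.0259%, 1.25%, 1.86% and 1.70% in the dTAG clones, against 0.180%, 0.150%, 0.428% and 0.404% in the dTAG parental line. Every treated library of the clones was above all 4 day 0 libraries in these 3 spans, and the ranges of days 7, 14 and 21 overlapped in each span. The dTAG parental library with the highest pileup (day 21, replicate 1, 3.26) held 0.574% of the 21q22.1 span and 1.72% of the KRT222 to KRT40 span, below every treated library of the clones. It held 3.36% of the KRTAP array, above 2 of the 12 treated libraries of the clones (3.08% in clone 8 day 7 replicate 1 and 2.30% in clone 8 day 14 replicate 2). Of the covered blocks, chromosome 12 averaged 19.4% ± 4.26 (SD, n = 4) at day 21 against 12.9% ± 4.58 (SD, n = 4) at day 0. KRT33A to KRT17 averaged 16.1% ± 5.02 (SD, n = 4) at day 21 against 11.4% ± 3.54 (SD, n = 4) at day 0, and 21q22.3 30.0% ± 4.32 (SD, n = 4) at day 21 against 30.1% ± 5.46 (SD, n = 4) at day 0. The 2 dTAG parental libraries held 29.45 and 15.2% of the chromosome 12 span at day 21, against 21.7 and 9.84% at day 0. They held 24.8 and 16.8% against 19.4 and 12.6% in KRT33A to KRT17, and 37.2 and 25.6% against 36.0 and 20.4% in 21q22.3. All 3 of these covered spans were thus higher at day 21 in the untagged line, while in the clones 21q22.3 was not. The means of the 3 bare spans, given above, were higher at day 21 in the untagged line too.

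In the KRT222 to KRT40 block all 12 genes were higher at day 21 (9 were at 0 in all 4 day 0 libraries), with a median difference of 8.16 percentage points. Of the 12, 9 were gained at day 7, 2 at day 14 and 5 at day 21, against 20.7%, 21.6% and 25.9% of all genes tested. The median difference of the 12 in the dTAG parental line at day 21 was 0. The 5 at day 21 were KRT20, KRT222, KRT26, KRT39 and KRT40, which the naming rule did not select at that day and which are named after their values were seen. KRT26 was covered by 7.01, 8.10, 5.58 and 7.56% at day 21 and by 0% (each library) at day 0, and by 0% (each library) in the 8 dTAG parental libraries. KRT222 was covered by 11.4, 9.51, 6.77 and 9.42% at day 21 and by 0% (each library) at day 0, and by at most 3.41% in the dTAG parental line. The day 21 libraries of neither gene overlapped its day 0 libraries. By limma the differences were +7.06 percentage points (SE 2.09, adjusted p = 0.0176) for KRT26 and +9.28 percentage points (SE 2.02, adjusted p = 0.00242) for KRT222. KRT26 and KRT222 were the 2 genes of the block called at all 3 days, as well as in the KO clones. KRT20, the intestinal and urothelial keratin, differed by 9.92 (adjusted p = 0.00446), and the hair keratin KRT39 by 9.34 (0.0279) by limma. The hair keratin KRT40 was covered by 2.38, 0.998, 12.7 and 21.2% at day 21 (clone 8, then clone 11) and by 0% (each library) at day 0. Its pooled difference of 9.31 (adjusted p = 0.00118 by limma) came mostly from clone 11: against its own day 0 clone 11 differed by 16.9 (adjusted p = 0.00185) and clone 8 by 1.69 (adjusted p = 0.758). KRT27 was covered by 12.8, 5.92, 0 and 12.7% at day 21 and by 0% (each library) at day 0 and did not pass (adjusted p = 0.113 by limma). KRT10 was gained at day 7 (adjusted p = 0.0385) and did not pass at day 21, with +8.00 percentage points (SE 4.16, adjusted p = 0.182) by limma. The matched promoters of this block were covered by 20.6% on average at day 21 and by 0% at day 0.

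In the KRTAP array 3, 6 and 5 of 27 tested genes were gained at days 7, 14 and 21, against 20.7%, 21.6% and 25.9% of all genes tested. KRTAP3-1 was covered by 72.4, 66.1, 73.5 and 66.1% at day 21 and by 0% (each library) at day 0, and by 0, 0, 0, 0, 51.3, 0, 0 and 0% in the 8 dTAG parental libraries (2 each at days 0, 7, 14 and 21). The day 21 libraries lay close together, and a single parental library had a peak there. The difference at day 21 was +69.5 percentage points (SE 11.5, adjusted p = 0.000286) by limma. KRTAP4-2 (chr17:41177446-41178221) was covered by 100, 100, 93.8 and 55.2% at day 21 and by 0% (each library) at day 0. That gene was covered in the dTAG parental line by 0, 0, 39.9, 0, 27.4, 0, 50.4 and 0%. The gene was gained at all 3 days in the clones, with +87.2 percentage points (SE 16.3, adjusted p = 0.000775) at day 21 by limma. In the KO experiment it averaged 54.3% ± 39.9 (SD, n = 4) in the KO clones and 6.31% ± 8.93 (SD, n = 2) in the KO parental line and did not pass. KRTAP4-4 (chr17:41159649-41160748) was covered by 51.1, 55.5, 23.8 and 29.1% at day 21 and by 0% (each library) at day 0, and was at 0 in the 8 dTAG parental libraries. For KRTAP4-4, limma gave +39.9 percentage points (SE 11.1, adjusted p = 0.0122). KRTAP1-5 (chr17:41026026-41027208), a high-sulfur gene, was covered by 16.6, 88.3, 22.6 and 23.0% at day 21 and by 0% (each library) at day 0, also with 0 in the dTAG parental line. For KRTAP1-5, limma gave +37.6 percentage points (SE 9.70, adjusted p = 0.00775). A single library carried much of that value: without clone 8 day 21 replicate 2 the difference was 19.7 percentage points, still called. These 4 calls held without any 1 of the 8 libraries. KRTAP4-5 was the other gene gained at day 21 (33.6 percentage points, adjusted p = 0.0127 by limma).

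In 21q22.1 only 1 of the 22 tested genes was gained at day 21, against 25.9% of all genes tested. Of all 33, 27 had no coverage on either day. KRTAP11-1 was covered by 82.2, 59.6, 69.7 and 37.9% at day 21 and by 0% (each library) at day 0, with 0 in all 8 dTAG parental libraries. At day 7 it was covered by 49.1, 0, 0 and 65.8% and at day 14 by 90.7, 0, 68.2 and 52.7%, so some treated libraries before day 21 had no peak on it. The day 21 libraries did not overlap those of day 0 (+62.3 percentage points, SE 15.8, adjusted p = 0.00691, by limma), and the call held without any 1 of the 8 libraries. Across the 33 genes, 3, 1, 0 and 3 had some coverage in the 4 day 7 libraries, 3, 0, 5 and 2 at day 14 and 3, 3, 3 and 1 at day 21. KRTAP24-1 and KRTAP26-1 had no peak in any of the 24 degron libraries, and KRTAP6-3 was covered by 44.6, 0, 41.6 and 0% at day 21. The cluster's genes take up 2.35% of its span. In 25-kb bins across it, 8 of 10 tested bins were gained in the KO clones and 7 of 10 at day 21, against 37.3% and 51.6% of all bins tested. The whole span was inside peaks by at most 0.0411% in the KO parental line and 0.0716% in the dTAG clones at day 0. The tested bins thus passed the filter on mean coverage mainly through other libraries. Their counts can therefore not be read against the shares of all bins. Among the genes themselves the counts were 4 of 22 and 1 of 22.

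**Figure D3:**
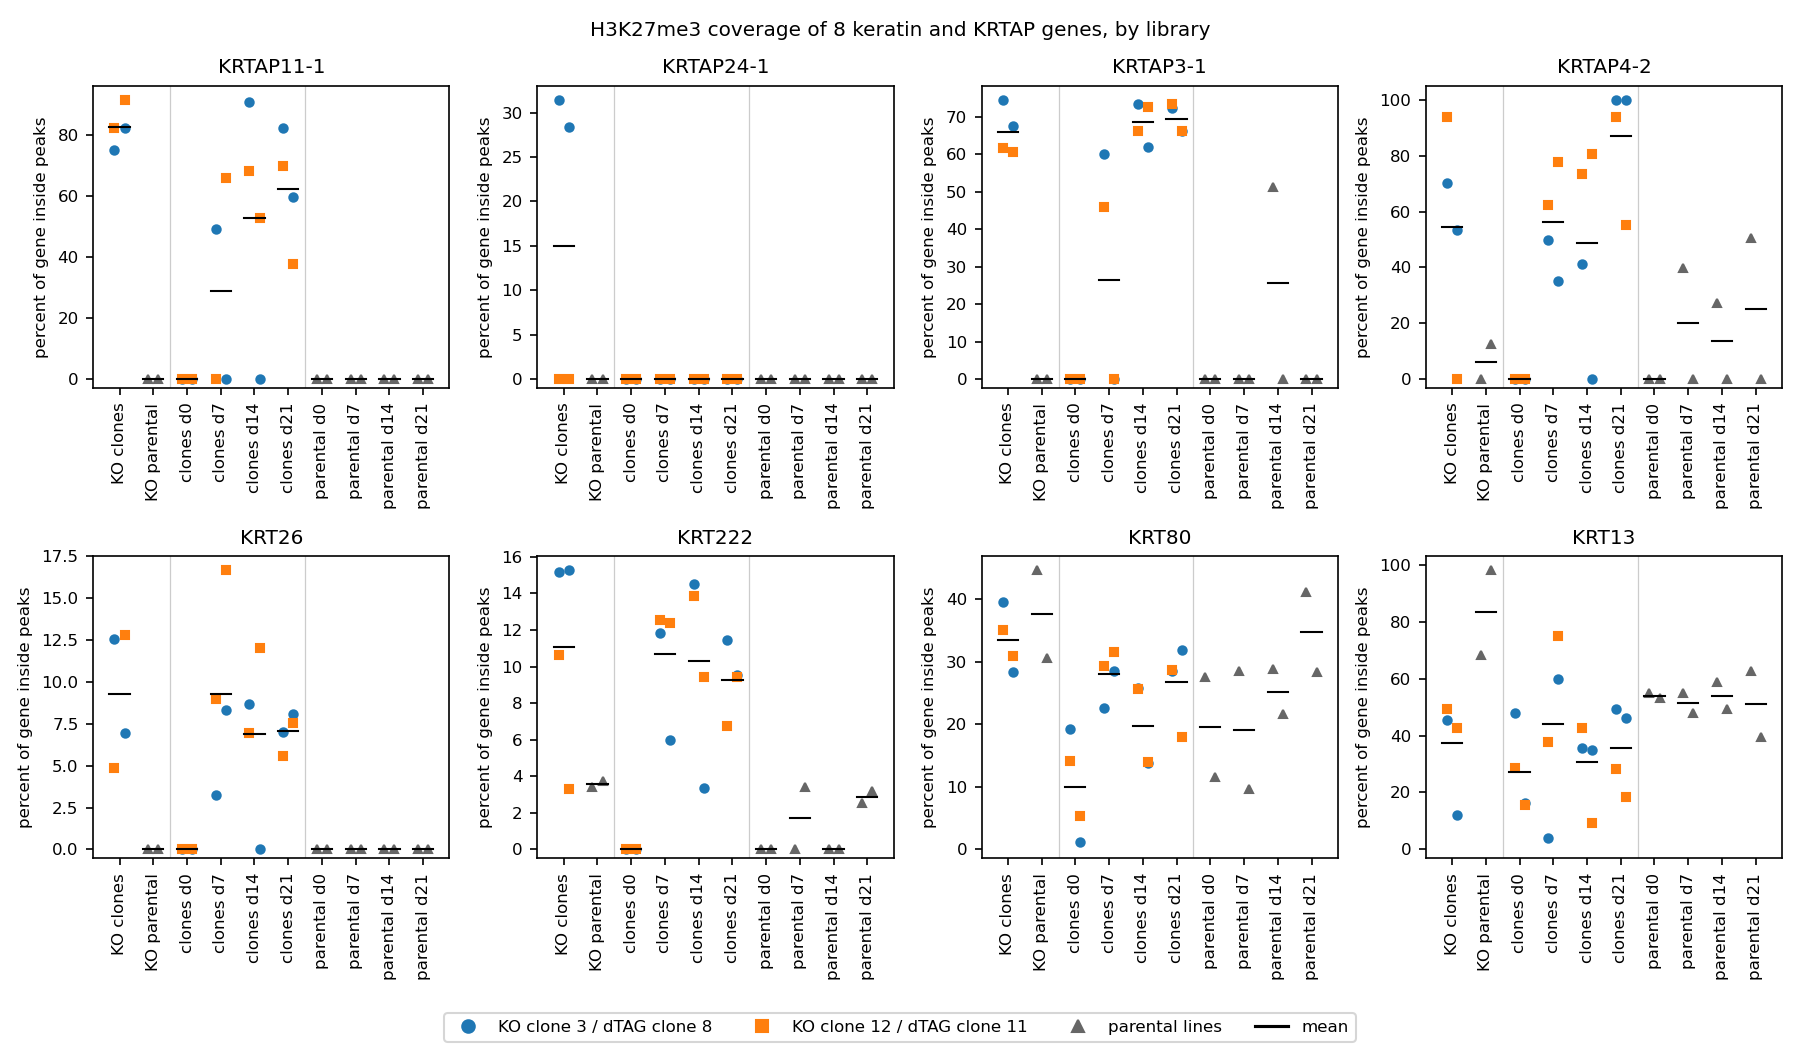
Percent of the gene body inside H3K27me3 peaks (y axis) by library (points) and group (x axis) for KRTAP11-1, KRTAP24-1, KRTAP3-1, KRTAP4-2, KRT26, KRT222, KRT80 and KRT13. KRTAP11-1 and KRTAP3-1 are at 0 in the KO parental line and at day 0 and above 0 in every KO and day 21 library, KRTAP24-1 has points above 0 in KO clone 3 alone, and KRT13 is lower in the KO clones than in the KO parental line.

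On chromosome 12, 4 of 27 genes were gained at day 21, against 25.9% of all genes tested. All 4 lie in the covered block: KRT80, KRT7, KRT84 and KRT8. KRT80 (chr12:52168996-52192014), a type II keratin of differentiating epithelia, was covered by 28.5, 31.8, 28.7 and 17.9% at day 21 and by 19.3, 1.25, 14.2 and 5.38% at day 0. For KRT80, limma gave +16.7 percentage points (SE 5.68, adjusted p = 0.0379). KRT7 (chr12:52233243-52255853), of glandular and simple epithelia, was covered by 14.6, 11.9, 20.5 and 14.1% at day 21 and by 9.44, 3.18, 6.50 and 2.91% at day 0. For KRT7, limma gave +9.78 percentage points (SE 3.25, adjusted p = 0.0338). KRT84 (chr12:52377812-52386977), a type II hair keratin, was covered by 35.9, 44.2, 30.7 and 9.81% at day 21 and by 19.2, 0, 19.6 and 12.8% at day 0. For KRT84, limma gave +17.2 percentage points (SE 5.83, adjusted p = 0.0365). KRT8 (chr12:52897191-52949860), whose annotated span overlaps KRT18, was covered by 20.6, 18.1, 22.08 and 11.7% at day 21 and by 14.5, 2.08, 6.92 and 2.64% at day 0. For KRT8, limma gave +11.6 percentage points (SE 4.04, adjusted p = 0.0427). Day 21 and day 0 libraries did not overlap for KRT7, and overlapped by 1 or more libraries for KRT80, KRT84 and KRT8. In the dTAG parental line, without a call, KRT80 was covered by 41.0 and 28.4% at day 21 and by 27.6 and 11.5% at day 0. Over the 27 genes the median difference at day 21 was 3.44 percentage points in the clones and 8.11 in the dTAG parental line. None of the 4 calls held in all of the 8 fits that left out 1 library, and with peaks cut to equal length KRT80, KRT84 and KRT8 turned to -0.974, -8.21 and -1.10 percentage points. KRT18 differed by -0.543 (adjusted p = 0.997), KRT5 by 7.15 (0.320), KRT14 by 3.34 (0.671) and KRT1 by -4.17 (0.799) by limma. The KRT33A to KRT17 block had 0 of 16 genes gained at day 21 and 2 at day 7 (KRT33B and KRT34, hair keratins). The shares over all genes tested were 25.9% and 20.7%. KRT13, lost in the KO clones, averaged 35.6% ± 14.7 (SD, n = 4) at day 21 and 27.1% ± 15.2 (SD, n = 4) at day 0 (adjusted p = 0.688). In 21q22.3, 0 of 15 genes were gained or lost on any treated day, and the member genes were covered by 90.6% at day 21 and 87.1% at day 0.

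The shares gained over all genes tested, 17.7% in the KO clones and 25.9% at day 21, stand beside the counts of keratins grouped by tissue, and lists of 3 to 11 genes are too small to be read against them. The simple epithelial list (5 tested) had 0 genes gained in the KO clones and 3 at day 21 (KRT7, KRT8 and KRT20). The inner root sheath list (8 tested) had 2 in the KO clones (KRT26 and KRT27) and 1 at day 21 (KRT26). The type I hair keratins (11 tested) had 0 gained in the KO clones and 2 at day 21 (KRT39 and KRT40), and the type II hair keratins (6 tested) 0 and 1 (KRT84). The basal (3 tested) and suprabasal (4 tested) epidermal lists had 0 gained in both comparisons. Of the 5 stress-induced keratins KRT6C was lost in the KO clones and none was called at day 21. Of the pairs named here, neither KRT8 with KRT18, nor KRT5 with KRT14, nor KRT1 with KRT10 had both members called in either comparison. Other pairings of type I and type II keratins were not examined, and KRT8 and KRT20 were both gained at day 21. By position, the inner root sheath type I genes and KRT10 sit in the bare block, while the type II inner root sheath genes sit in the covered chromosome 12 block, where 0 of them were called.

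The same spans in 25-kb bins gave profiles free of gene length. Of 97 bins tested in the 6 clusters, 19 were gained in the KO clones and 38 at day 21, against 37.3% and 51.6% of all bins, and 0 were lost in either, against 0.522% and 0.367%. Without KO parental replicate 1 or 2 the KO count was 9 or 7. The chromosome 17 cluster had 11 of 39 bins gained in the KO clones and 19 at day 21, the chromosome 12 cluster 0 of 33 and 11, and 21q22.3 0 of 7 in both. In the dTAG parental line 0 of the 97 were gained or lost at day 21 by limma (3 at an unadjusted p under 0.05), against 0.0% of all bins for each. Of the 97, 2 were called higher in the clones' change than in the parental line's, against 3.39% of all bins, and 0 lower, against 0.0582%. By clone, clone 8 had 9 of 129 genes gained at day 21 against 16.6% of all genes, and clone 11 had 2 (KRT40 and KRTAP3-1) against 8.18%, with 0 lost in either, against 0.232% and 0.0913%. On equal-length lists the bare spans held 1.14% at day 21 against 0.207% at day 0 in KRT222 to KRT40, 1.07% against 0.526% in the KRTAP array and 0.196% against 0.00796% in 21q22.1. Chromosome 12 then held 4.10% against 7.45%.

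**Figure D4:**
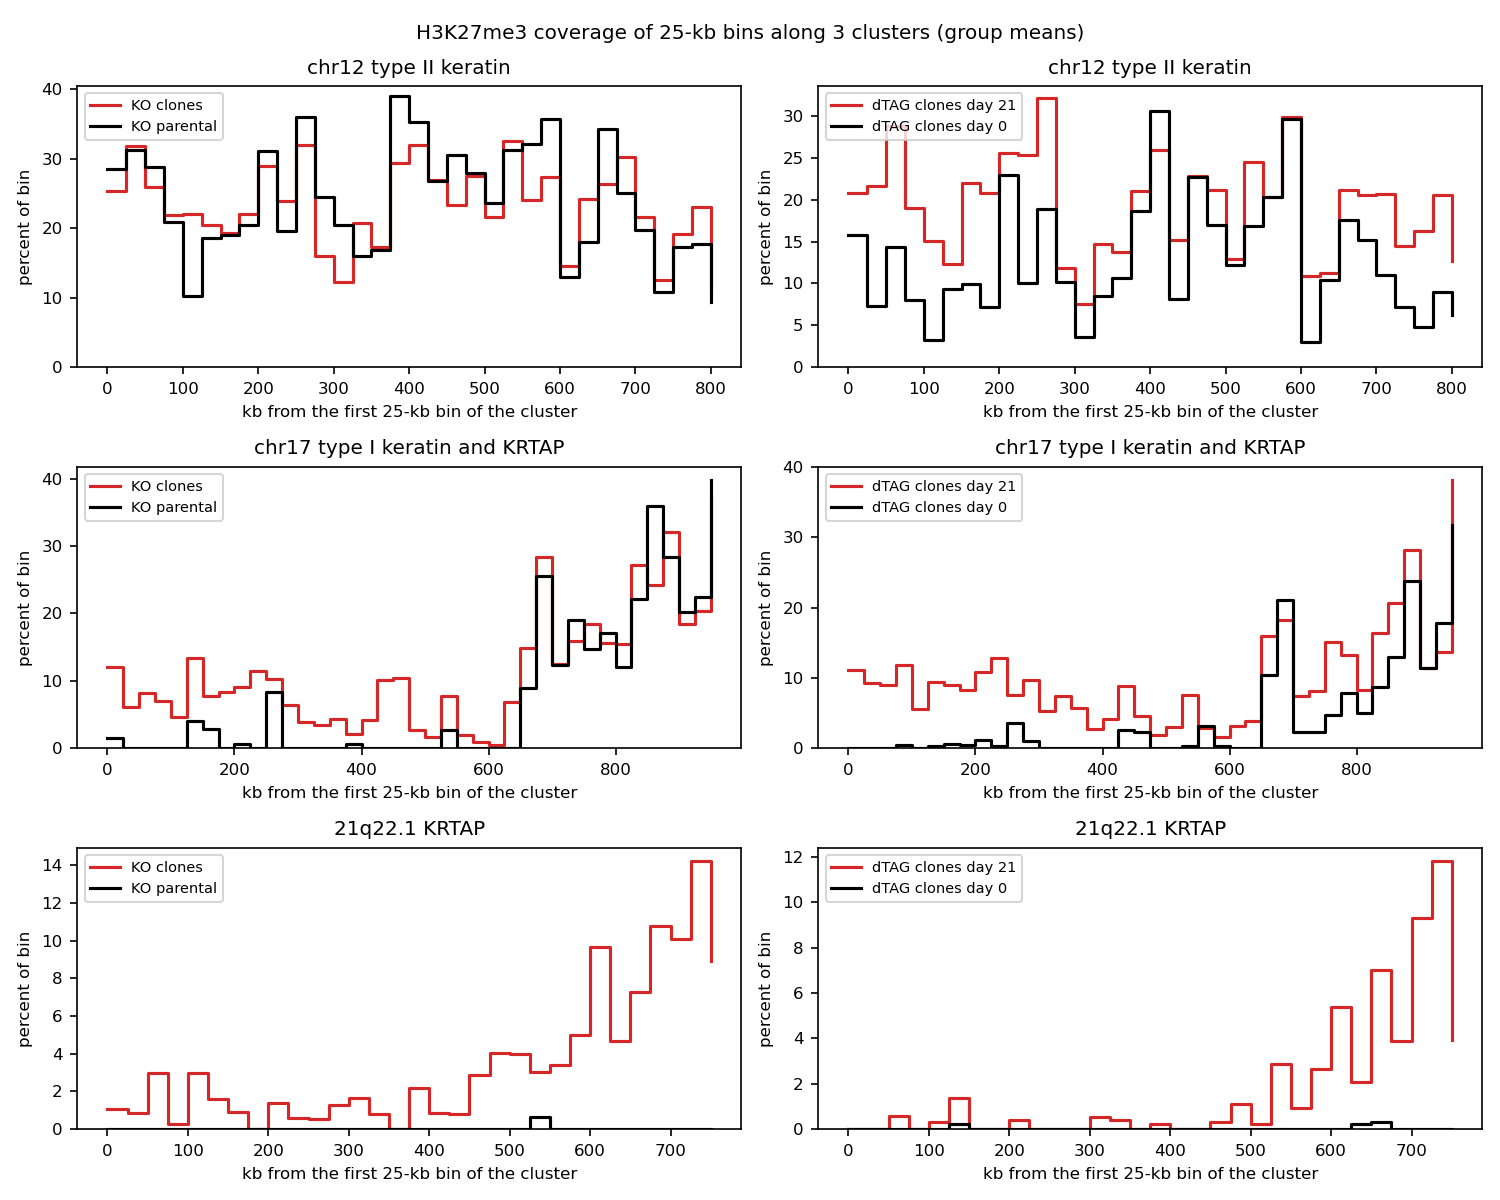
Percent of each 25-kb bin inside H3K27me3 peaks (y axis) along the chromosome 12, chromosome 17 and 21q22.1 clusters (x axis, distance from the start of the cluster), for the KO clones and the KO parental line (left) and for the dTAG clones at day 21 and day 0 (right), as group means. Along 21q22.1 and the first part of the chromosome 17 cluster the parental and day 0 lines stay near 0, while on chromosome 12 the KO clones and the KO parental line cross.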

How the data were processed

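H3K27me3 was profiled by CUT&Tag from 50000 nuclei a sample with 13 cycles of PCR, per the labels' protocols. The deposited files of the 30 libraries used here are narrow peak lists on hg38, 1 list per library, whose columns the authors' software (MACS3 3.0.2, per the submitters' processing notes) wrote as a peak score, a fold enrichment ratio, a −log10 p-value and a −log10 q-value. The deposited −log10 q-values start at 1.00 to 1.01. The submitters' processing notes also name fastp 0.24.0, Bowtie2, SAMtools, Picard, deepTools 3.5.1, DESeq2 and ChIPseeker 1.42.1. Calling options, and any use of an IgG control, were not given in the sources used here. No coverage track or read count was used, so the depth of a library is unknown apart from an index, the background pileup (0.922 to 3.26). It was solved with scipy 1.17.1 from fold and p of the shortest 2% of peaks, assuming a pseudocount of 1. A library gave 63 to 255 solutions, of which 26 to 132 fell in the best window of 0.01. The 10 libraries of IgG, H3K27ac and H3K4me3 were not analysed here.

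Peaks were merged in each library, and the percent of every protein-coding gene (RefSeq, GRCh38.p14) and of every 25-kb bin of chromosomes 1 to 22 and X inside them was computed with pandas 2.3.3 and numpy 2.4.6 under Python 3.11.15. Figures were drawn with matplotlib 3.10.9. Genes and bins with a mean between 1 and 99% were fitted with limma 3.58.1 in R 4.3.3, with 1 mean for each of 15 groups of 2 libraries, empirical Bayes with a trend, and Benjamini-Hochberg adjustment over all 14235 genes or 49812 bins. The spread therefore comes from 15 residual degrees of freedom between libraries of 1 clone and day, not between clones, and the fit was tested on simulated data. Genes of any length entered, since 62 of the 149 are under 1 kb. Peaks mark where the signal passed a threshold, so coverage depends on depth and on how much of the genome each list calls; within a peak it says nothing of height. Spans are described without a test.

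In each cluster and in the KO and day 21 comparisons, the genes named are the 4 largest gains and 2 largest losses past the threshold, with KRT8, KRT18, KRT5, KRT14, KRT1 and KRT10 always; others are said to be named after their values were seen. The genes and lists were chosen with earlier results of these data known. Alternatives were scaling coverage by called length, the pileup as a covariate, lists shortened to the shortest one, −log10 q of at least 5, the compared groups alone, genes of at least 1 kb, no filter, a 5-kb flank, the replicate number as a block, and each library left out.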

Additional observations from a re-analysis of the deposited data

Results flagged for a closer look

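Within a group of 4 libraries, 12 values lay far from the other 3. In all, 155 groups were examined, and chance flags about 1 in 20 groups where values do not tie. The flag sets the gap against the range, so it is always raised where the other 3 libraries are at 0. Such were KRT10 at day 0 and KRTAP6-3 at day 7, among others, and for these the chance rate does not hold. In the KO clones, the lowest KRTAP4-7 coverage was 29.7% (clone 12 replicate 2), the lowest KRTAP6-3 coverage was 0 (the same library), the highest KRTAP4-4 coverage was 72.5% (clone 3 replicate 1) and the lowest share of the 21q22.3 span was 28.4%.

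In the dTAG clones at day 0, the highest KRT10 coverage was 7.34%. At day 7, the lowest KRTAP4-4 coverage was 0 and the highest KRTAP6-3 coverage was 37.3%. At day 14, the highest KRT84 coverage was 39.4% and the highest KRT14 coverage was 9.34%. At day 21, the highest KRTAP1-5 coverage was 88.3%, the highest KRT14 coverage was 13.3% and the lowest KRTAP4-2 coverage was 55.2%. KRTAP1-5 stayed called at day 21 without its high library, and KRTAP4-2 without its low one.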

How the results depend on the processing

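Of genes gained in the KO clones (10), lists of equal length and −log10 q of at least 5 left 0 each, and the compared groups alone and genes of at least 1 kb left 6 each. Genes lost (2) were 15 scaled by called length, 4 at equal length, 0 at q and with the compared groups alone, and 1 with 5-kb flanks. Genes gained at day 7 (17) were 5 with the pileup covariate, 0 at equal length and at q, and 27 with flanks. At day 14 (9) they were 5, 1, 0 and 19 in that order, and 2 over genes of at least 1 kb. At day 21 (15) they were 7, 2, 1 and 27. Genes lost (0) became 22, 26 and 27 at days 7, 14 and 21 when scaled, 1, 3 and 2 with the pileup covariate, 1, 2 and 1 at equal length, and 1 at day 7 with the compared groups alone. The test of the difference gave 1 higher gene at q, 5 with the compared groups alone and 1 with the replicate block, and 8 lower when scaled and 1 at equal length. Same-numbered replicates of the 15 groups deviated together, with positive correlations in all 105 pairs (0.0448 to 0.538, median 0.168, 71 over 0.1), and replicate 1 had the longer called length in 13 of 15 groups. No label says what the number stands for and 0.1 was not passed in every pair, so the block stayed an alternative. With the replicate number as a block, 14 genes were gained and 2 lost in the KO clones and 24, 12 and 19 gained at days 7, 14 and 21. Scaling moved the median difference of all genes to -1.26 (KO) and -1.30 (day 21) percentage points.

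Bins gained were 12 scaled, 0 at equal length and 0 at q in the KO clones (19), and 23 scaled, 22 with the pileup covariate, 3 at equal length and 0 at q at day 21 (38). Bins lost (0) were 42, 8 and 8 in the KO clones and 29, 13 and 4 at day 21 scaled, with the covariate and at equal length, and 2 in the KO clones with the replicate block.

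Leaving out 1 library gave 3 to 19 genes gained and 0 to 3 lost in the KO clones, 7 to 19 gained and 0 to 0 lost at day 7, 5 to 15 and 0 to 1 at day 14, 9 to 18 and 0 to 1 at day 21. It gave 0 to 1 and 0 to 0 in the dTAG parental line (1 without day 0 replicate 1), and 0 to 1 higher and 0 to 1 lower in the difference. Bins gained ranged over 7 to 22 in the KO clones and 26 to 41 at day 21, and bins lost over 0 to 1 and 0 to 0.

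Span differences, KO clones minus KO parental line and then day 21 minus day 0, were 0.900 and 4.01 percentage points at 11p15 but -14.7 and -16.4 scaled. They were -4.87 and 5.90 at 11q13 but -18.1 and -1.71 scaled, with -2.14 at equal length and -0.567 at q for day 21. At 21q22.1 they were 3.28 and 1.68, with 0.444 and 0.188 at equal length and 0.195 and 0.0839 at q. At 21q22.3 they were 1.78 and -0.169, but -16.7 and -32.4 scaled, -8.64 (KO) at q and -9.11 (day 21) at equal length. They were -0.784 and 6.60 on chromosome 12 but -16.6 and -8.01 scaled, with -3.35 at equal length and -0.732 at q for day 21. Over the whole chromosome 17 cluster they were 3.71 and 5.47 but -2.51 and -0.490 scaled, -2.14 and -0.716 at equal length and -2.05 and -0.386 at q. Its 3 blocks were recomputed after seeing the data. KRT222 to KRT40 (6.69 and 8.51) gave 3.64 (KO) scaled, 0.741 and 0.930 at equal length and 0.231 and 0.375 at q. The KRTAP array (4.35 and 3.69) gave 1.81 (day 21) scaled, 0.488 and 0.541, and 0.367 and 0.190. KRT33A to KRT17 (-0.285 and 4.78) gave -14.4 and -8.38, -8.34 and -3.25, and -6.95 and -1.40.

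Among single genes, KRT6C turned to 4.59 and KRTAP10-1 to -25.0 in the KO clones at q, and at day 21 KRT80 to -0.974 at equal length, KRT84 to -8.21 and -3.05 and KRT8 to -1.10 and -0.222 at equal length and at q. Scaled by called length, KRTAP4-7, KRTAP10-1, KRT80, KRT7, KRT84 and KRT8 lost their calls. Causes were not tested. Fewer of these genes were tested on short lists (80 at equal length, 62 at q). Depth is known only as an index, so coverage of 0 means that no peak was called, not that the mark was absent.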

Other observations

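Other intermediate filament genes, which lie elsewhere, ranged widely in coverage, from PRPH at 34.8 to 58.6% and NES at 49.6 to 84.4% over the 30 libraries to INA at 0% in the dTAG clones on day 0. Of 7 tested desmosome and cell junction genes, 2 were gained in the KO clones and 2 at day 21, against 17.7% and 25.9% of all genes tested. DSP, the desmosomal plaque protein that anchors keratin filaments, averaged 10.8% ± 4.60 (SD, n = 4) in the KO clones and 2.28% ± 0.0926 (SD, n = 2) in the KO parental line, a difference of 8.54 percentage points (SE 2.79, adjusted p = 0.0407 by limma). At day 21 it averaged 10.3% ± 4.77 and at day 0 2.57% ± 0.488 (SD, n = 4 each), a difference of 7.76 (SE 2.28, adjusted p = 0.0170 by limma). The desmosomal cadherin DSG3 was gained in the KO clones (6.15 percentage points, adjusted p = 0.0248) and the plakophilin PKP1 at day 21 (21.0, adjusted p = 0.0492). Against the same shares, of 14 tested transcription factors of hair follicle and epidermis, LEF1 was gained in the KO clones (4.23, adjusted p = 0.000474) and SOX21, TFAP2C and LHX2 at day 21 (31.5, 16.6 and 4.83). Of 14 other intermediate filament genes, the lens gene BFSP2 was gained in the KO clones (5.67, adjusted p = 0.0461), and NEFH, INA, BFSP1, LMNA and BFSP2 at day 21 (17.8, 17.8, 10.2, 8.52 and 8.03). INA, a neuronal filament gene, averaged 17.8% ± 8.04 at day 21 and 0% in each library at day 0. In the dTAG parental line 0 genes of these lists were called at day 21 by limma.

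Other protein-coding genes within the clusters or 500 kb of them were compared too. Of 98 such neighbours tested in the KO clones, 1 was gained (SCN8A, 3.58 percentage points, adjusted p = 0.000388) and 1 lost (ATG101, -13.8, adjusted p = 0.0111) by limma, both beside the chromosome 12 cluster, against 17.7% gained and 0.717% lost over all genes tested. At day 21, 10 of the 98 were gained and 1 lost, against 25.9% and 0.471% of all genes tested. The gained genes were 7 of 29 by the chromosome 12 cluster, 2 of 27 by the chromosome 17 cluster and 1 of 1 by 21q22.1. The lost gene was CCR7, the chemokine receptor gene beside the bare KRT222 to KRT40 block, with 44.3% ± 5.99 at day 21 and 65.5% ± 7.99 at day 0 (SD, n = 4 each; -21.2 percentage points, SE 5.44, adjusted p = 0.00748 by limma). TIAM1, next to the 21q22.1 cluster, averaged 4.48% ± 0.314 at day 21 and 1.57% ± 0.605 at day 0 (SD, n = 4 each; adjusted p = 0.00118 by limma). In the dTAG parental line 0 of the 98 were called at day 21.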
